A study of Homo sapiens with 4 samples.

Results

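The enzymes that modify and clear drugs and other foreign compounds were examined in 2 human hepatocellular carcinoma (HCC) lines with altered levels of CCDC137, a nuclear RNA-binding protein. The set held 44 genes of the 60612 listed, chosen by name as cytochromes P450 (CYP), alcohol and aldehyde dehydrogenases (ADH, ALDH), esterases, UDP-glucuronosyltransferases (UGT), sulfotransferases (SULT), N-acetyltransferases (NAT), a flavin monooxygenase (FMO) and the receptors that sense foreign compounds. Each of the 44 was found once, by its symbol, in the mRNA sequencing tables. There were 4 libraries, 1 per group: Huh-7 cells stably overexpressing CCDC137, Huh-7 cells with the empty vector, PLC/PRF/5 cells with CCDC137 knocked down, and PLC/PRF/5 control cells. Per the study, the overexpressing and knockdown cells were stable lentiviral lines kept after antibiotic selection, and an empty vector was the control of overexpression. Overexpression used a vector with a V5 tag, and knockdown used a guide RNA with inactive Cas9 fused to the KRAB repressor. The labels do not say which guide was used in the sequenced cells, or whether the PLC/PRF/5 control cells carried a vector or a guide. With 1 library per group, no difference below has a replicate check and no test was run. In bulk libraries, fewer cells that express a gene and less RNA per cell cannot be told apart.

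In the liver, foreign compounds are first oxidized, reduced or hydrolyzed, mainly by P450 enzymes of the endoplasmic reticulum, and then joined to glucuronic acid, sulfate, acetyl groups or glutathione so that they can be excreted. Transcription of these enzymes is raised by ligand-activated receptors, chiefly the aryl hydrocarbon receptor AHR, the pregnane X receptor (gene NR1I2) and the constitutive androstane receptor (gene NR1I3). Adult hepatocytes are known for high levels of many of these enzymes, and cultured hepatoma lines for low levels of most. No liver tissue was sequenced here, so that a loss relative to liver was not measured.

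Values are FPKM, fragments per kilobase of transcript scaled to the mapped fragments of the library, which allows levels to be compared between genes. Where a gene has a pair of values for Huh-7 cells, these are the overexpressing and the empty vector library, and for PLC/PRF/5 cells the knockdown and the control library. CCDC137 followed the labels, at 229 FPKM in overexpressing and 11.9 FPKM in empty vector Huh-7 cells, and at 0.771 FPKM in knockdown and 20.5 FPKM in control PLC/PRF/5 cells. Between 11727 and 11903 genes per library reached 1 FPKM. The depth of the libraries is unknown, and values near 1 FPKM may rest on few fragments. Of 8 hepatocyte markers, APOB was at 373 to 436 FPKM in the 4 libraries and HNF4A at 9.05 to 17.3 FPKM. FGB was at 224 and 244 FPKM in Huh-7 and 172 and 214 FPKM in PLC/PRF/5 cells. TF was at 106 and 81.5 FPKM in Huh-7 and 63.6 and 58.8 FPKM in PLC/PRF/5 cells. SERPINA1 was higher in PLC/PRF/5 cells, at 281 and 296 FPKM in Huh-7 and 484 and 589 FPKM in PLC/PRF/5 cells. APOA1 was at 245 and 238 FPKM in Huh-7, against 4.01 and 4.60 FPKM in PLC/PRF/5 cells. ALB, which encodes albumin, was at 1142 and 1084 FPKM in Huh-7 but at 1.94 and 2.15 FPKM in PLC/PRF/5 cells, and TTR was at 93.0 and 89.3 FPKM in Huh-7 and 0.260 and 0.298 FPKM in PLC/PRF/5 cells. Of 16 markers of bile duct, fibroblast, blood and endothelial cells, 4 of 4 bile duct, 1 of 5 fibroblast, 2 of 4 blood and 1 of 3 endothelial markers reached 1 FPKM in a library. PTPRC, which marks white blood cells, was listed at 0 in all 4, and CD3E, DCN, VWF and CDH5 did not exceed 0.0364 FPKM. CD68, a lysosomal protein abundant in macrophages, was at 4.60 and 8.45 FPKM in Huh-7 and 43.8 and 38.2 FPKM in PLC/PRF/5 cells, and SOX9, a bile duct factor, at 29.2 and 25.9 FPKM in Huh-7 and 8.998 and 8.27 FPKM in PLC/PRF/5 cells. KRT19, a bile duct keratin, was at 0.157 and 0.409 FPKM in Huh-7 cells, against 14.4 and 13.0 FPKM in PLC/PRF/5 cells, and LUM, a fibroblast marker, at 22.8 and 28.7 FPKM in Huh-7 and 0.285 and 0.328 FPKM in PLC/PRF/5 cells. The part of these differences between the lines in the results below was not tested.

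A gene was taken as kept in a line at 1 FPKM or more in both of its libraries, and as near zero below 0.1 FPKM in both. Huh-7 cells kept 18 of 44 members, with 9 low and 17 near zero. PLC/PRF/5 cells kept 14, with 17 low and 13 near zero. These classes were not counted over all genes, so the counts only describe the members. Both lines kept the same 11 genes, namely AHR, CYP1A1, CYP4F3, ADH6, ALDH1A1, ALDH2, CES2, UGT2B4, UGT2B7, UGT2B11 and NAT1. A further 7 were kept in Huh-7 cells but not in PLC/PRF/5 cells, 3 in PLC/PRF/5 cells but not in Huh-7 cells, and 23 in neither. On the scale of TPM (FPKM rescaled to the same total in every library), which raises every value, 21 were kept in Huh-7 and 22 in PLC/PRF/5 cells, so that the order of the lines turned.

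**Figure D1:**
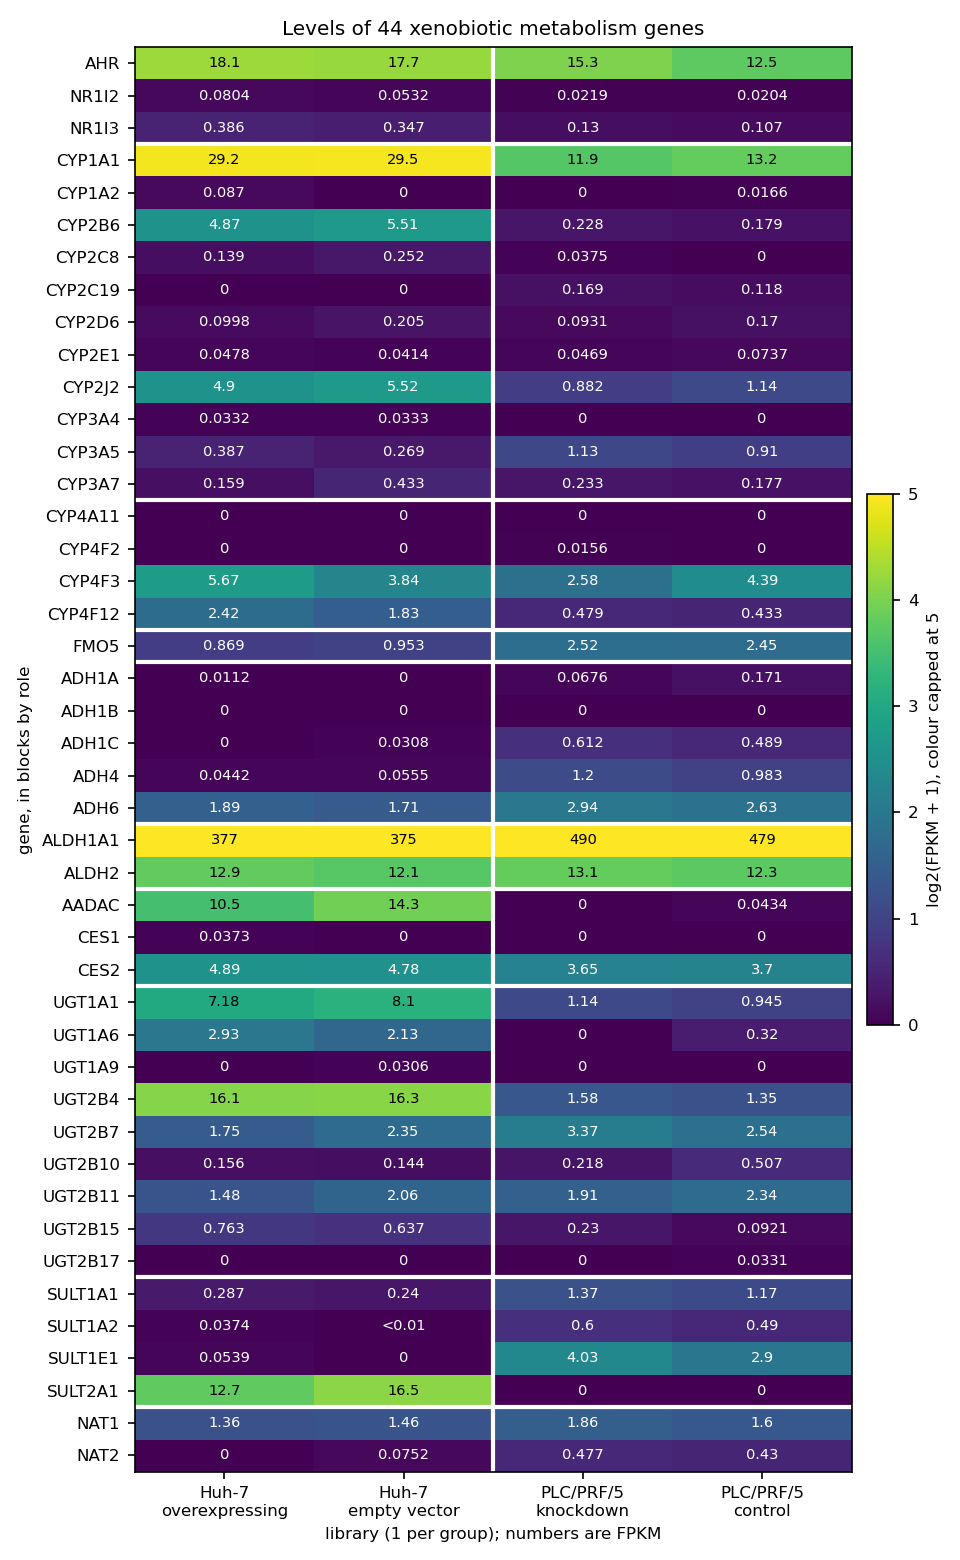
FPKM of all 44 genes (rows, in blocks by role) in the 4 libraries (columns, 1 per group); color gives log2(FPKM + 1), capped at 5, and each cell prints its FPKM. ALDH1A1, ALDH2, AHR and CYP1A1 are above 10 FPKM in all 4 libraries, whereas CYP3A4, CYP2E1, CYP1A2, CES1 and ADH1B are below 0.1 FPKM in all 4.

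The summed FPKM of the set was carried by ALDH1A1. This cytosolic enzyme, which oxidizes retinal to retinoic acid and also clears aldehydes, was at 377 and 375 FPKM in overexpressing and empty vector Huh-7 cells and at 490.3 and 479 FPKM in knockdown and control PLC/PRF/5 cells. It held 72.5% and 71.5% of the summed FPKM of the 44 genes in the Huh-7 libraries and 86.9% and 87.1% in the PLC/PRF/5 libraries. Without it the other 43 genes summed to 143 and 149 FPKM in Huh-7 cells, against 74.1 and 70.9 FPKM in PLC/PRF/5 cells. ALDH2, the mitochondrial enzyme that oxidizes the acetaldehyde made from ethanol, was at 12.9 and 12.1 FPKM in Huh-7 cells and at 13.1 and 12.3 FPKM in PLC/PRF/5 cells, a range in which the lines overlapped.

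Among the receptors, AHR alone was kept. It was at 18.1 and 17.7 FPKM in Huh-7 cells and at 15.3 and 12.5 FPKM in PLC/PRF/5 cells. Of its 150-base windows 27.8% occur in an overlapping gene, which did not exceed 0.0159 FPKM. NR1I2, the receptor for rifampicin and many other drugs, did not exceed 0.0804 FPKM in any library. NR1I3, which mediates induction by phenobarbital, was at 0.386 and 0.347 FPKM in Huh-7 cells and at 0.130 and 0.107 FPKM in PLC/PRF/5 cells, above NR1I2 in each library but below 1 FPKM.

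The P450 enzymes that dominate drug oxidation in adult liver were mostly at or near zero. CYP3A4, which oxidizes the widest range of drugs, was at 0.0332 and 0.0333 FPKM in Huh-7 cells and was listed at 0 in both PLC/PRF/5 libraries. Its neighbors CYP3A5 and CYP3A7, of which CYP3A7 is a fetal liver form, lay higher. CYP3A5 was at 0.387 and 0.269 FPKM in Huh-7 and at 1.13 and 0.910 FPKM in PLC/PRF/5 cells, while CYP3A7 ranged over 0.159 to 0.433 FPKM. CYP2E1, the ethanol-inducible form, was at 0.0414 to 0.0737 FPKM, CYP2D6 at 0.0931 to 0.205 FPKM, and CYP2C8 and CYP2C19 did not exceed 0.252 FPKM. CYP2D6 shares 20.3% of its 150-base windows with the pseudogene CYP2D7, and CYP3A7 shares 40.1% with the readthrough gene CYP3A7-CYP3A51P. The values of CYP2D6 and CYP3A7 are uncertain for that reason. CYP2C19 is uncertain too, since 21.0% of its windows occur in an overlapping gene without a symbol (ENSG00000276490), at 0.0728 and 0.103 FPKM in Huh-7 and 1.97 and 1.02 FPKM in PLC/PRF/5 cells.

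CYP1A1 was the most abundant P450 of the set in every library. This AHR target, which oxidizes polycyclic aromatic hydrocarbons, was at 29.2 and 29.5 FPKM in Huh-7 cells and at 11.9 and 13.2 FPKM in PLC/PRF/5 cells. CYP1A2, a second AHR target that lies next to it on chromosome 15, was at 0.0870 FPKM and listed at 0 in Huh-7 cells, and listed at 0 and at 0.0166 FPKM in PLC/PRF/5 cells. CYP2B6, a target of NR1I3, was at 4.87 and 5.51 FPKM in Huh-7 cells, against 0.228 and 0.179 FPKM in PLC/PRF/5 cells. CYP2J2, which makes epoxides of arachidonic acid, was at 4.90 and 5.52 FPKM in Huh-7 cells, against 0.882 and 1.14 FPKM in PLC/PRF/5 cells. For both genes the lines did not overlap.

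The CYP4 enzymes hydroxylate the end of fatty acid chains. CYP4F3, which inactivates leukotriene B4, was at 5.67 and 3.84 FPKM in Huh-7 cells and at 2.58 and 4.39 FPKM in PLC/PRF/5 cells. CYP4F12 was at 2.42 and 1.83 FPKM in Huh-7 cells, against 0.479 and 0.433 FPKM in PLC/PRF/5 cells. CYP4F2, which also hydroxylates vitamins E and K, was at 0.0156 FPKM in knockdown cells and listed at 0 in the others, and CYP4A11 was listed at 0 in all 4 libraries. CYP4F3 shares only 0.373% of its 150-base windows with CYP4F2. FMO5, a flavin monooxygenase, was at 0.869 and 0.953 FPKM in Huh-7 cells, against 2.52 and 2.45 FPKM in PLC/PRF/5 cells.

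Ethanol-oxidizing alcohol dehydrogenases were low. ADH1B was listed at 0 in all 4 libraries, ADH1A did not exceed 0.171 FPKM, and ADH1C was at a listed 0 and 0.0308 FPKM in Huh-7 cells, against 0.612 and 0.489 FPKM in PLC/PRF/5 cells. ADH4, which also oxidizes retinol, was at 0.0442 and 0.0555 FPKM in Huh-7 cells, against 1.20 and 0.983 FPKM in PLC/PRF/5 cells. ADH6 was the only member of this group kept in both lines, at 1.89 and 1.71 FPKM in Huh-7 and 2.94 and 2.63 FPKM in PLC/PRF/5 cells. All 5 genes lie in the same cluster on chromosome 4.

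Of the esterases, CES2, which cleaves the prodrug irinotecan, was at 4.89 and 4.78 FPKM in Huh-7 cells and at 3.65 and 3.70 FPKM in PLC/PRF/5 cells. CES1, the main carboxylesterase of liver, was at 0.0373 FPKM in overexpressing cells and listed at 0 in the other 3 libraries. It shares 20.3% of its 150-base windows with other genes, mainly CES1P1, and its value is uncertain for that reason. AADAC, a deacetylase of the endoplasmic reticulum, was at 10.5 and 14.3 FPKM in Huh-7 cells, against a listed 0 and 0.0434 FPKM in PLC/PRF/5 cells.

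The UGT genes did not share 1 order of levels in the lines. UGT2B4, which acts on bile acids, was at 16.1 and 16.3 FPKM in Huh-7 cells, against 1.58 and 1.35 FPKM in PLC/PRF/5 cells. UGT2B7, the enzyme of morphine glucuronidation, was at 1.75 and 2.35 FPKM in Huh-7 and 3.37 and 2.54 FPKM in PLC/PRF/5 cells, and was thus the most abundant UGT member in the PLC/PRF/5 libraries. UGT2B11 overlapped between the lines, at 1.48 and 2.06 FPKM in Huh-7 and 1.91 and 2.34 FPKM in PLC/PRF/5 cells. UGT2B15 and UGT2B17, which act on androgens, were lower. UGT2B15 did not exceed 0.763 FPKM, UGT2B17 was at 0.0331 FPKM in control PLC/PRF/5 cells and listed at 0 elsewhere, and UGT2B10 was at 0.144 to 0.507 FPKM.

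The UGT1A genes each have a first exon of their own and share the remaining exons, so that fragments from the shared part can be given to any of them. UGT1A1, the only enzyme that conjugates bilirubin in liver, was at 7.18 and 8.10 FPKM in Huh-7 cells, against 1.14 and 0.945 FPKM in PLC/PRF/5 cells. UGT1A6, which acts on small phenols, was at 2.93 and 2.13 FPKM in Huh-7 cells, against a listed 0 and 0.320 FPKM in PLC/PRF/5 cells. UGT1A9 was at 0.0306 FPKM in empty vector cells and listed at 0 in the others. Of their 150-base windows, 48.5% (UGT1A1), 35.9% (UGT1A6) and 60.3% (UGT1A9) also occur in another gene. Summed over all 9 UGT1A genes, the level was 11.4 and 14.7 FPKM in Huh-7 cells and 2.14 and 1.26 FPKM in PLC/PRF/5 cells, so that the difference between the lines was also present in the sum.

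**Figure D2:**
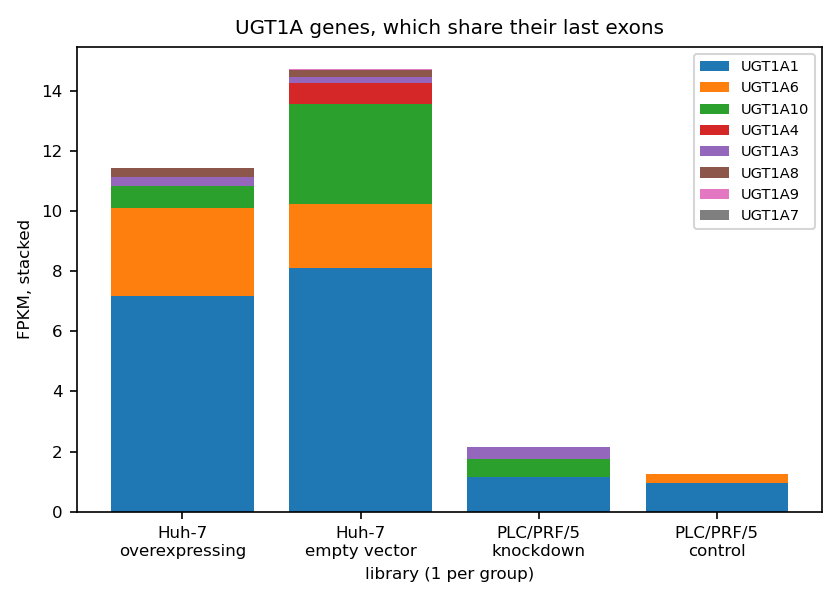
Stacked FPKM of the UGT1A genes (vertical axis) in the 4 libraries (horizontal axis, 1 per group); UGT1A5 was listed at 0 throughout. The stacks reach 11.4 and 14.7 FPKM in overexpressing and empty vector Huh-7 cells, and 2.14 and 1.26 FPKM in knockdown and control PLC/PRF/5 cells.

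The sulfotransferases divided by line. SULT2A1, which sulfates dehydroepiandrosterone and bile acids, was at 12.7 and 16.5 FPKM in Huh-7 cells and listed at 0 in both PLC/PRF/5 libraries. SULT1E1, the estrogen sulfotransferase, was at 0.0539 FPKM and a listed 0 in Huh-7 cells, against 4.03 and 2.90 FPKM in PLC/PRF/5 cells. It shares 12.3% of its windows with an overlapping gene that did not exceed 0.200 FPKM. SULT1A1, which sulfates phenols, was at 0.287 and 0.240 FPKM in Huh-7 cells, against 1.37 and 1.17 FPKM in PLC/PRF/5 cells. SULT1A2, its close relative, followed the same order at 0.0374 and 0.00952 FPKM in Huh-7 cells, against 0.600 and 0.490 FPKM in PLC/PRF/5 cells, and both share over 10% of their windows with other genes. Of the acetyltransferases, NAT1, which is widely expressed, was at 1.36 and 1.46 FPKM in Huh-7 and 1.86 and 1.60 FPKM in PLC/PRF/5 cells. NAT2, the isoniazid-acetylating enzyme of liver, was at a listed 0 and 0.0752 FPKM in Huh-7 cells, against 0.477 and 0.430 FPKM in PLC/PRF/5 cells.

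The lines were then set against each other. The libraries of a line differ in CCDC137 by design and are not replicates, so the comparison is a description. A gene counted as apart where both libraries of a line lay above both of the other and the line means of log2(FPKM + 1) differed by at least 1, a fold of 2. Of the 23 members at 1 FPKM or more in any library, 9 were apart with Huh-7 higher, beside 12.4% of 13857 genes. These were SULT2A1, AADAC, UGT2B4, CYP2B6, UGT1A1, CYP2J2, UGT1A6, CYP1A1 and CYP4F12. On this scale the differences, Huh-7 minus PLC/PRF/5, were 3.95 for SULT2A1, 3.70 for AADAC and 2.81 for UGT2B4, and 1.17 for CYP1A1 near the lower end. As ratios of the mean FPKM of Huh-7 over PLC/PRF/5 cells, CYP2B6 was at 25.5, UGT2B4 at 11.1, UGT1A1 at 7.34, CYP2J2 at 5.14 and CYP1A1 at 2.34. With PLC/PRF/5 higher, 1 member was apart, SULT1E1 at -2.11, beside 13.1% of the same genes. This count was 5 with a pseudocount of 0.1 FPKM, which added CYP3A5, SULT1A1, FMO5 and ADH4, and 8 on the scale of TPM. As a check chosen after seeing the data, the count was 0 without members that share over 10% of their windows, which leaves out SULT1E1. These alternatives were not counted over all genes, so no share stands beside them.

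**Figure D3:**
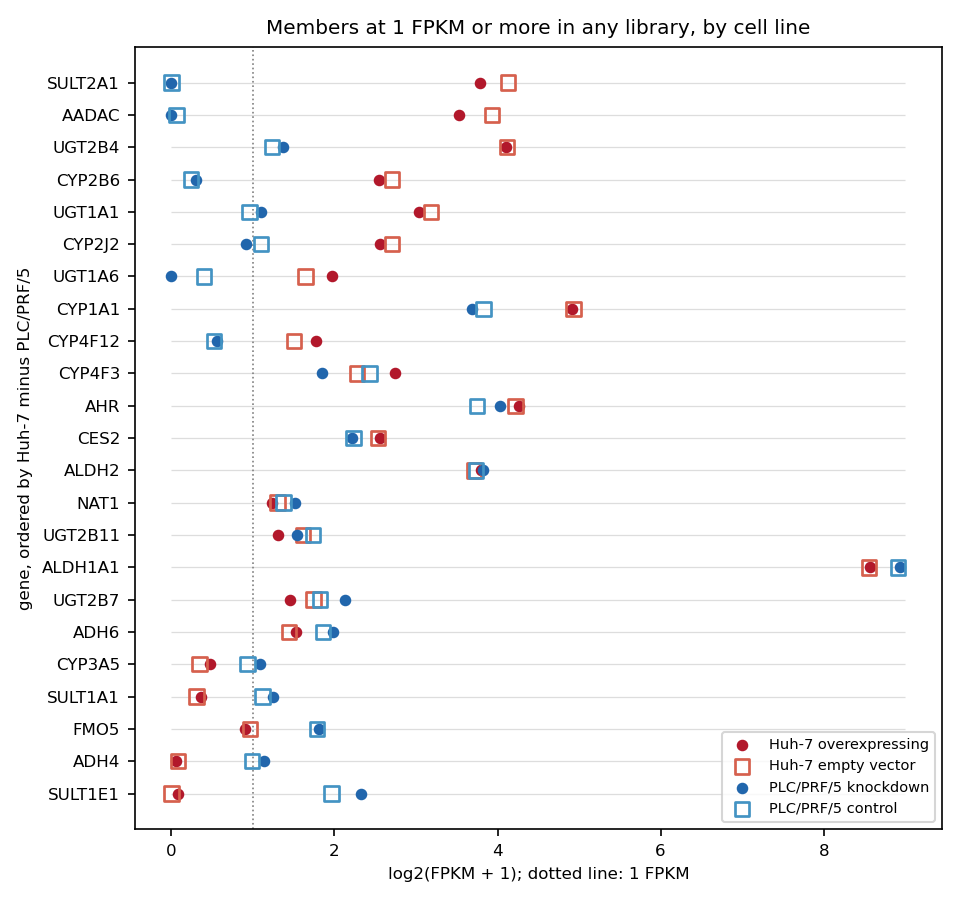
log2(FPKM + 1) (horizontal axis) of the 23 members at 1 FPKM or more in any library (vertical axis, ordered by Huh-7 minus PLC/PRF/5); filled circles are overexpressing Huh-7 (red) and knockdown PLC/PRF/5 cells (blue), open squares their controls. From SULT2A1, AADAC and UGT2B4 at the top, where Huh-7 is higher, the order runs to SULT1E1 at the bottom, where PLC/PRF/5 is higher; the libraries of CYP4F3, ALDH2 and UGT2B11 overlap between the lines.

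The start regions of 4 members are shown because these genes carry the contrasts above: CYP1A1, kept in both lines, CYP2B6 and SULT2A1, kept in Huh-7 cells, and SULT1E1, kept in PLC/PRF/5 cells. Each window runs from 250 bases before to 50 bases after the gene start in RefSeq (GRCh38.p14), and windows of 33 of the 44 members were matched. Capitals mark matches on either strand to GCGTG (the core bound by AHR with ARNT), GTTAAT (a core of HNF1 sites), CAAAGNCC (a core of HNF4 sites) and TTNNGNAA (a C/EBP pattern), and no capitals overlap. The windows are chr15:74725479-74725778 on the minus strand for CYP1A1, chr19:40991032-40991331 on the plus strand for CYP2B6, chr19:47886266-47886565 on the minus strand for SULT2A1 and chr4:69860096-69860395 on the minus strand for SULT1E1.
CYP1A1: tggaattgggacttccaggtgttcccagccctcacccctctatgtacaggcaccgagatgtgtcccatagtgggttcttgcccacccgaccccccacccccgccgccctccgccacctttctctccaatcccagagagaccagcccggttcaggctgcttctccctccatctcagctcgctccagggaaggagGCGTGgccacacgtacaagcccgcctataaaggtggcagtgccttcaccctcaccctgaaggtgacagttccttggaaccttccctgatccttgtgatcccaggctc
CYP2B6: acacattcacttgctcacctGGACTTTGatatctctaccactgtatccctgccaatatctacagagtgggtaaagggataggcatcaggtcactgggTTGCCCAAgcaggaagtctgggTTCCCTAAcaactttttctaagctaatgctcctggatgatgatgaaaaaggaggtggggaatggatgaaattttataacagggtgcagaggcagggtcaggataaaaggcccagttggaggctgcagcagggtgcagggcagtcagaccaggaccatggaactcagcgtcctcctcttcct
SULT2A1: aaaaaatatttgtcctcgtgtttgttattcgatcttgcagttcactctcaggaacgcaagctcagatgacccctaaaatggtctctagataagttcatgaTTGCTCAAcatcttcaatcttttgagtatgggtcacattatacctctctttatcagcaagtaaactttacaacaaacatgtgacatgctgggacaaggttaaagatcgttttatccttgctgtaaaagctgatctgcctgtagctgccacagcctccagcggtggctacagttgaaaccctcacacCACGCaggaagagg
SULT1E1: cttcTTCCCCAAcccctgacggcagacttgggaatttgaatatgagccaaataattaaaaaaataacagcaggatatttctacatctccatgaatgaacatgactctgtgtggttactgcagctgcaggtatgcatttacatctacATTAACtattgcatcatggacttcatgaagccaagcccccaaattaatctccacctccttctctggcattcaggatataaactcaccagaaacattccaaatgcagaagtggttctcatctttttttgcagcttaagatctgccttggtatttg
GCGTG began at position -57 of CYP1A1, counted along the printed strand from the gene start, and in reverse at position 37 of SULT2A1. In the window of SULT1E1, GTTAAT was found in reverse at -104. CAAAGNCC was found in reverse at -230 of CYP2B6. The C/EBP pattern was found in reverse at -153 and -131 of CYP2B6, at -150 of SULT2A1 and at -246 of SULT1E1. Of all 35116 windows, 36.5% hold GCGTG, 6.88% GTTAAT, 5.49% CAAAGNCC and 36.8% the C/EBP pattern, beside 7, 7, 6 and 18 of the 33 members. The units differ, since the 33 members have 36 windows and a member counted with a match in any of its windows. These matches describe letters and not bound sites.

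Partners of the receptors and factors of hepatocytes, among them C/EBP proteins, were also measured. CEBPA was at 61.7 and 55.1 FPKM in Huh-7 cells, against 6.401 and 6.85 FPKM in PLC/PRF/5 cells. CEBPB was at 21.2 and 22.3 FPKM in Huh-7 cells, against 47.9 and 50.7 FPKM in PLC/PRF/5 cells. FOXA2 was at 18.7 and 21.4 FPKM in Huh-7 and 14.2 and 13.6 FPKM in PLC/PRF/5 cells.

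Among the partners and targets of AHR, NQO1, a quinone reductase, was at 87.0 and 76.3 FPKM in Huh-7 and 47.9 and 34.8 FPKM in PLC/PRF/5 cells. The chaperone HSP90AB1, which holds AHR in the cytosol, was at 475 and 481 FPKM in Huh-7 and 725 and 731 FPKM in PLC/PRF/5 cells, and its co-chaperone PTGES3 was at 43.0 to 56.6 FPKM.

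Genes that supply electrons and cofactors were expressed. All 7 redox partners reached 1 FPKM, led by PGRMC1 (34.6 and 35.4 FPKM in Huh-7, 54.9 and 52.5 FPKM in PLC/PRF/5 cells). CYB5B, an outer mitochondrial cytochrome b5, was at 15.9 and 15.4 FPKM in Huh-7 and 43.2 and 43.8 FPKM in PLC/PRF/5 cells, and CYB5R3, a cytochrome b5 reductase, at 29.2 and 26.8 FPKM in Huh-7 and 11.0 and 12.6 FPKM in PLC/PRF/5 cells. POR, the reductase that feeds electrons to all microsomal P450 enzymes, was singled out after its values were seen and was at 19.7 and 18.6 FPKM in Huh-7 and 15.5 and 15.3 FPKM in PLC/PRF/5 cells. Among 7 genes of cofactor supply, 1 was apart, with Huh-7 higher, beside 12.4% of 13857 genes. A count of 1 in 7 is near this share. The gene was PAPSS2, which makes the sulfate donor of sulfotransferases. PAPSS2 was at 63.6 and 64.4 FPKM in Huh-7 cells against 5.58 and 4.82 FPKM in PLC/PRF/5 cells. UGDH, which makes the glucuronic acid donor, was at 25.1 and 25.0 FPKM in Huh-7 and 40.1 and 42.3 FPKM in PLC/PRF/5 cells, and ALAS1, the first enzyme of heme synthesis, was at 30.4 to 38.8 FPKM.

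Of 22 glutathione transferases and epoxide hydrolases, 21 were matched by symbol and 14 reached 1 FPKM in a library. GSTP1, a transferase scarce in normal hepatocytes, was at 96.9 and 101 FPKM in Huh-7 cells, against 714 and 702 FPKM in PLC/PRF/5 cells. GSTO1 was at 105 and 115 FPKM in Huh-7 and 35.6 and 36.7 FPKM in PLC/PRF/5 cells, and GSTK1 at 27.3 and 28.3 FPKM in Huh-7 and 18.2 and 17.3 FPKM in PLC/PRF/5 cells. Among 59 further genes of the same families, 21 reached 1 FPKM, 5 of them apart with Huh-7 higher and 8 with PLC/PRF/5 higher, beside 12.4% and 13.1% of all genes. SULT1C4, a fetal sulfotransferase, was at 0.825 and 0.675 FPKM in Huh-7 cells, against 43.96 and 41.5 FPKM in PLC/PRF/5 cells. ALDH18A1, which acts in proline synthesis, was at 76.6 and 75.1 FPKM in Huh-7 and 32.5 and 32.0 FPKM in PLC/PRF/5 cells, and ADH5, the glutathione-dependent formaldehyde dehydrogenase, at 26.8 and 26.6 FPKM in Huh-7 and 22.4 and 19.1 FPKM in PLC/PRF/5 cells.

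On CCDC137 overexpression in Huh-7 cells, no member passed 1.5-fold. Each difference was taken on the scale of log2(FPKM + 1), overexpressing minus empty vector and later knockdown minus control, where 1.5-fold corresponds to 0.585 and where low genes show less than their full change. Of 44 members, 18 reached 1 FPKM in either library. Of these, 0 were higher and 0 were lower by 1.5-fold, beside 3.22% higher and 2.99% lower of 12255 genes, 6.21% together. At 2-fold the count was likewise 0, beside 1.07% higher and 1.09% lower, 2.15% together. The median of the 18 was -0.01, beside 0.01 over all expressed genes. Of the 18, 8 were higher and 10 lower, beside 6568 higher and 5687 lower of 12255 genes. Within 0.1 of 0 lay 8 of the 18, a count that was not made over all genes.

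The values furthest from 0 came from CYP4F3, at 5.67 FPKM in overexpressing and 3.84 FPKM in empty vector cells (0.46), and AADAC, at 10.5 FPKM in overexpressing and 14.3 FPKM in empty vector cells (-0.40). In overexpressing and empty vector cells, SULT2A1 was at 12.7 and 16.5 FPKM (-0.35), UGT1A6 at 2.93 and 2.13 FPKM (0.33), UGT2B11 at 1.48 and 2.06 FPKM (-0.31), UGT2B7 at 1.75 and 2.35 FPKM (-0.28) and CYP4F12 at 2.42 and 1.83 FPKM (0.27). Nearer to 0 lay CYP1A1 at -0.01, UGT2B4 at -0.01, ALDH1A1 at 0.01, AHR at 0.04 and ALDH2 at 0.09. The remaining 6 were CYP2B6 and UGT1A1 at -0.15, CYP2J2 at -0.14, NAT1 at -0.06, CES2 at 0.03 and ADH6 at 0.09. Summed over the UGT1A genes the difference was -0.34, while UGT1A6 was higher and UGT1A10 was at 0.713 FPKM in overexpressing and 3.33 FPKM in empty vector cells (-1.34). How the fragments of their shared exons were divided was not tested. Of the markers of other cell types, CD68 alone passed 1.5-fold, at 4.60 FPKM in overexpressing and 8.45 FPKM in empty vector cells (-0.75), and its part in these values was not tested.

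On CCDC137 knockdown in PLC/PRF/5 cells, 1 member passed 1.5-fold. CYP4F3 was at 2.58 FPKM in knockdown and 4.39 FPKM in control cells, a ratio of 0.588 and a log2 difference of -0.59, just past the limit. Of 18 members at 1 FPKM or more in either library, 0 were higher and 1 was lower by 1.5-fold, beside 3.08% higher and 2.95% lower of 12300 genes, 6.03% together. At 2-fold the count was 0, beside 1.2% higher and 1.1% lower, 2.3% together. A share of 1 in 18 is near this background. The count was 0 when the median of all expressed genes was set to 0, and CYP4F3 then lay on the other side of the limit.

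Of the 18 members expressed on knockdown, 13 lay above 0 and 5 below, beside 5876 above and 6424 below of 12300 genes. The median of the 18 was 0.12, beside -0.01 over all expressed genes. It was 0.06 at an expression limit of 5 FPKM and 0.03 over all 44 members without a limit. SULT1E1 was at 4.03 FPKM in knockdown and 2.90 FPKM in control cells (0.37). In knockdown and control cells, UGT2B7 was at 3.37 and 2.54 FPKM (0.30) and AHR at 15.3 and 12.5 FPKM (0.28). Above 0 by less lay CYP3A5 (0.16), ADH4 (0.15), NAT1 and UGT1A1 (0.14), UGT2B4 and SULT1A1 (0.13) and ADH6 (0.12). Below 0 were UGT2B11 (-0.20), CYP2J2 (-0.19) and CYP1A1 (-0.14), while AHR lay above 0, as given above. ALDH1A1 and FMO5 were at 0.03, ALDH2 at 0.08 and CES2 at -0.02. Summed over the UGT1A genes, the level was 2.14 FPKM in knockdown and 1.26 FPKM in control cells (0.47). In knockdown cells UGT1A10 was at 0.619 FPKM and UGT1A3 at 0.381 FPKM, and both were listed at 0 in control cells. UGT1A6 went the other way, at a listed 0 in knockdown and 0.320 FPKM in control cells. These values lie below 1 FPKM, and those of UGT1A1 and the other UGT1A genes are uncertain because of their shared exons. None of the marker genes of other cell types passed 1.5-fold on knockdown.

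**Figure D4:**
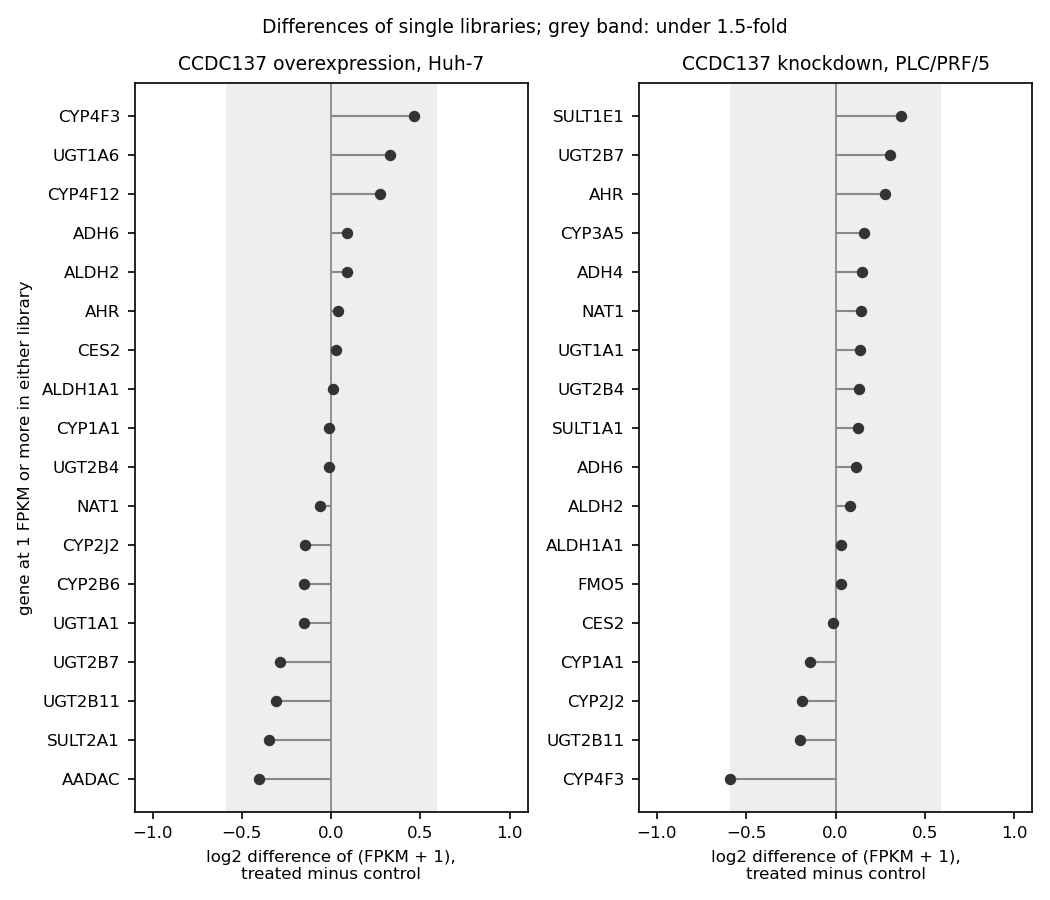
log2 difference of FPKM + 1 (horizontal axis, treated minus control) of the members at 1 FPKM or more in either library (vertical axis, 18 in each panel), on CCDC137 overexpression in Huh-7 (left) and knockdown in PLC/PRF/5 cells (right); each point is 1 library against 1 library. The grey band spans differences under 1.5-fold: all 18 overexpression values lie in it, and on knockdown CYP4F3 lies at its lower edge at -0.59.

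The 2 comparisons share no library. Of 13 members expressed in both, 2 lay above 0 on overexpression and below 0 on knockdown, and 4 had the reverse pattern. A further 4 were higher in both and 3 lower in both. These counts were not made over all genes, so they are not read as a result about the members. CYP4F3 and CES2 made up the first group, with CYP4F3 at 0.46 and -0.59 and CES2 at 0.03 and -0.02. CYP4F3 (ENSG00000186529) lies on chromosome 19 of GRCh37 from 15751707 to 15773635, plus strand, near CYP4F12 at 15783828 to 15807984. CYP4F12 was at 0.27 on overexpression and was below 1 FPKM in both PLC/PRF/5 libraries. UGT2B7 had the reverse pattern, at -0.28 and 0.30.

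The genes that supply or control these enzymes were read against the same shares of all genes past 1.5-fold, 6.21% on overexpression and 6.03% on knockdown. None of the redox partners, cofactor genes, glutathione transferases or AHR partners did so in either comparison. Of 21 expressed receptor partners and hepatocyte factors, 2 were higher on overexpression, FOXA3 at 13.3 FPKM in overexpressing and 4.27 FPKM in empty vector cells (1.44) and PPARA, a fatty acid receptor, at 1.89 FPKM in overexpressing and 0.780 FPKM in empty vector cells (0.70), a share of 9.52%. On knockdown 2 of 22 were lower, PPARA at 0.591 FPKM in knockdown and 1.66 FPKM in control cells (-0.74) and NR0B2, a corepressor of bile acid synthesis, at 4.11 FPKM in knockdown and 6.73 FPKM in control cells (-0.60), a share of 9.09%. HNF4A, a hepatocyte factor singled out after its values were seen, was at 17.3 FPKM in overexpressing and 12.1 FPKM in empty vector cells (0.48), and at 11.6 FPKM in knockdown and 9.05 FPKM in control cells (0.32), higher in both treated libraries. Of 17 expressed further family members, SULT1A3 was higher on overexpression at 1.59 FPKM in overexpressing and 0.509 FPKM in empty vector cells (0.78), UGT1A10 was lower as given above (together 11.8%), and none passed on knockdown. SULT1A3 has a near-identical copy, SULT1A4, and its value is uncertain.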

How the data were processed

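mRNA of 4 libraries was sequenced, and the deposited values are FPKM of each gene as the authors calculated them. StringTie 1.3.4d, HISAT2 2.0.4 and cutadapt are listed in the processing notes of the submitters. Which genome build, annotation and strand setting were used was not given in the sources used here. Columns with the authors' own fold changes, p-values and q-values were not used. A deposited value of 0.0001 was read as 0, so that a gene given above as listed at 0 may hold 0.0001 as deposited. Depth per library is unknown, so that no counting interval was set.

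Differences were log2((FPKM + 1)/(FPKM + 1)) in Python 3.11.15 (numpy 2.4.6, pandas 2.3.3) among genes at 1 FPKM or more in either library, and calls were differences of 1.5-fold and 2-fold on this scale. The functions were tested on simulated data. Members and lists were chosen with earlier results of these data known, and members were grouped by role. All 44 members are given. From the further lists, the 3 genes with the highest mean FPKM and those past 1.5-fold are named; some genes of these lists are not reported here. Shared 150-base windows, overlaps and gene positions come from GENCODE release 44 lifted to GRCh37, and start regions from RefSeq (GRCh38.p14). Alternatives covered the pseudocount, the filter, median centring, TPM and, chosen after seeing the data, leaving out members with over 10% shared windows.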

Additional observations from a re-analysis of the deposited data

How the results depend on the processing

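With 1 library per group, no replicate could be left out. No paired analysis was possible because each group holds a single library. On overexpression the count of members past 1.5-fold was 0, and 1 (CYP3A7, below 1 FPKM as deposited) when rescaled to TPM. On knockdown it was 1, and 0 with an expression limit of 5 FPKM, 0 when median centred and 3 when rescaled to TPM (CYP4F3, UGT1A6 and UGT2B10). Rescaling to TPM raises every value, so that more low genes pass the limit. The median on overexpression lay between -0.03 (median centred) and 0.03 (TPM), on both sides of 0, and that on knockdown between 0.03 (no filter) and 0.18 (pseudocount of 0.1 FPKM). At a limit of 5 FPKM, 8 members were kept in Huh-7 and 4 in PLC/PRF/5 cells, and as TPM 21 in Huh-7 and 22 in PLC/PRF/5 cells. The count of members apart with PLC/PRF/5 higher was 5 with a pseudocount of 0.1 FPKM, 8 as TPM and 0 without members that share over 10% of windows, since SULT1E1 is among these. With Huh-7 higher it stayed within 1.5 times of 9. The counts under these alternatives were made for the members only and not over all genes. Single members moved by 0.1 or more in 9 cases with the smaller pseudocount and in 5 as TPM, and the cause was not tested. Low values may rest on few fragments, and their depth is unknown.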
